A study of Schizosaccharomyces pombe with 16 samples.

Results

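The inner subtelomeric genes of chromosomes I and II of fission yeast (Schizosaccharomyces pombe) lie next to the outermost genes of each chromosome arm, toward the centromere. Membership was decided by gene ID alone. Genes with an exon probe were taken if their ID began with SPAC1F8., SPAC11D3., SPAC5H10., SPAC869., SPAC1039., SPBC1683., SPBC359. or SPBC1289., apart from 14 listed genes with those prefixes. This gave 80 genes out of 5220 with an exon or non-coding RNA probe. Of these, 79 were tested; SPAC869.04, a predicted formamidase gene, had a value on only 2 arrays and was not. In the order of the RefSeq table (assembly ASM294v3), ranks were counted from the end among the annotated protein-coding genes. The 35 members on the left end of chromosome I ranked between 31 and 67. The 18 members on the right end ranked between 18 and 45. On chromosome II the 12 members of the left end ranked between 34 and 51, and the 15 members of the right end between 30 and 45.

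RNA polymerase II carries a tail of repeated heptads, the C-terminal domain (CTD) of its largest subunit Rpb1, whose serines are phosphorylated and dephosphorylated during transcription. The series compared total RNA of 4 rpb1 mutants with wild type (WT), each mutant and WT in opposite colours of one splicing-sensitive Agilent array, with dyes swapped between replicates. The serine at heptad position 7 was replaced by alanine in rpb1-S7A and by glutamate in rpb1-S7E, the serine at position 2 by alanine in rpb1-S2A, and both serines by alanine in rpb1-S2AS7A (here S2A/S7A). The labels of all 4 mutants name a "rump", 18 repeats and 14 altered heptads. Whether the 18 repeats include the 14 altered heptads was not settled here. Unaltered serines may remain in the rump, whose sequence the labels do not give. The labels describe the WT partner by that word only. All cultures were grown in YES, a rich medium, to mid-log phase, and replicates were separately grown. S7A and S2A had 4 arrays each, S2A/S7A had 5 and S7E had 3, and these numbers limit the precision.

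The ends of fission yeast chromosomes are covered by heterochromatin, in which the methyltransferase Clr4 marks lysine 9 of histone H3 and the HP1-family protein Swi6 binds that mark. Inward of it lies a condensed region known from microscopy as the knob, which depends on the shugoshin Sgo2 and on the histone methyltransferase Set2. Many genes of these regions encode permeases and enzymes for scarce nutrients, and many are known to be low in rich medium and induced when nitrogen runs out.

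Values are log2 of mutant over WT, as deposited. Mutant over WT is the likely direction and 2 the likely base, but no source used here states either. Each member has 1 exon probe, and ± is the standard error (SE) of a limma fit to all 16 arrays unless SD is named. A gene was called higher or lower, and is said to have risen or fallen, where the Benjamini-Hochberg adjusted p over the 5188 genes tested was under 0.05. The test sets each mutant against 0. WT enters only as the other channel of each array, so its spread is not estimated apart. No source used here says whether arrays of different mutants shared a WT culture, so results of the 4 mutants are set side by side and are not treated as independent.

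Probes with a value numbered 13061 to 14918 of 15207 per array, and array medians lay between -0.03 and 0.03. The 3 arrays S7A replicate 4, S2A replicate 4 and S7E replicate 1 stood apart from the others of their groups in earlier results of these data. Over the members, the SD on S7E replicate 1 was 1.03, against 0.69 on both other S7E arrays. On S7A replicate 4 it was 0.34, against 0.46 to 0.48 on the other S7A arrays. Values without them are given beside many of the results that rest on them. On all 3 the mutant was in Cy5, and S7E replicate 1 was the only S7E array with that dye. Without it, the S7E values rest on a dye term estimated from the other mutants. The mutated gene itself, rpb1, was 0.08 ± 0.058 in S7A, 0.73 ± 0.058 in S2A, 0.34 ± 0.052 in S2A/S7A and 0.04 ± 0.068 in S7E, and it was called higher in S2A and S2A/S7A. Where its probe lies relative to the altered heptads was not stated.

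Among the inner subtelomeric genes more fell than rose in each mutant. Most of those that fell did so by at least 1.5-fold in S2A, S2A/S7A and S7E, but not in S7A. In S2A, 33 of the 79 members fell (41.8%, against 27.1% of all genes tested) and 22 rose (27.8%, against 31.2%). In S2A/S7A, 31 fell (39.2%, against 27.8% of all genes) and 23 rose (29.1%, against 35.1%). S7E lowered 37 members (46.8%, against 27.6%) and raised 19 (24.1%, against 33.5%). S7A lowered 27 (34.2%, against 16.6%) and raised 12 (15.2%, against 18.0%). The share of members that fell was thus above that of all genes in every mutant, and the share that rose was below it.

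The gap was wider for changes of at least 1.5-fold. Members that fell by that much numbered 21 in S2A (26.6%, against 4.93% of all genes), 21 in S2A/S7A (26.6%, against 4.74%), 23 in S7E (29.1%, against 6.73%) and 8 in S7A (10.1%, against 1.62%). Members that rose by at least 1.5-fold numbered 5 in S2A (6.33%, against 6.53%), 6 in S2A/S7A (7.59%, against 6.25%), 5 in S7E (6.33%, against 9.43%) and 0 in S7A (against 2.12%). These are descriptions of the list and carry no test of their own. Without the 3 arrays that stood apart, the members that fell at least 1.5-fold numbered 18 in S2A, 21 in S2A/S7A, 27 in S7E and 10 in S7A. The shares of all genes were not counted without those arrays.

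**Figure D1:**
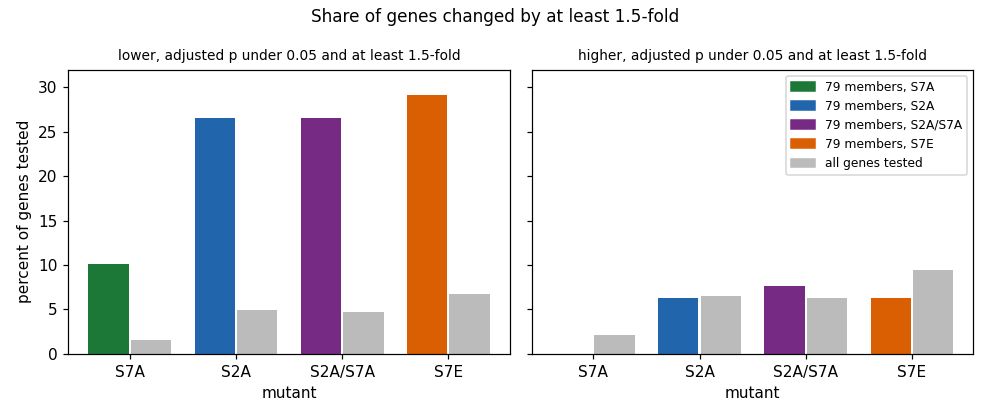
Share of genes tested (percent, vertical axis) that passed an adjusted p of 0.05 and changed by at least 1.5-fold, lower (left panel) and higher (right panel), by mutant; coloured bars are the 79 inner subtelomeric genes and grey bars all 5188 genes. The lower shares of the members range from 10.1% in S7A to 29.1% in S7E, and each is above its grey bar.

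The typical member, in contrast, sat near 0. The median log2 value over the 79 members was -0.08 in S7A, 0.02 in S2A, -0.04 in S2A/S7A and -0.11 in S7E, beside 0.00, 0.03, 0.04 and 0.04 over all genes. The median size of the change, with its sign dropped, was 0.24 in S7A, 0.36 in S2A, 0.37 in S2A/S7A and 0.41 in S7E, beside 0.13, 0.21, 0.22 and 0.26 over all genes. The members were thus spread more widely than the other genes, with a long lower tail.

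The 4 chromosome ends differed in their counts. Of all genes tested, 16.6% fell and 18.0% rose in S7A, and 27.1% and 31.2% in S2A. In S2A/S7A 27.8% fell and 35.1% rose, and in S7E 27.6% and 33.5%. On the left end of chromosome II, 10 of 12 members fell in S2A, 8 in S2A/S7A, 7 in S7E and 6 in S7A. Those that rose at that end numbered 1, 2, 1 and 2 in that order. On the right end of chromosome I, 11 of 17 fell in S2A, 9 in S2A/S7A, 9 in S7E and 4 in S7A (7 without the 3 arrays). At that end 4, 3, 2 and 3 rose. On the left end of chromosome I, 10 of 35 fell in S2A, 12 in S2A/S7A, 17 in S7E and 15 in S7A. Members that rose at that end numbered 11, 10, 7 and 3, so that slightly more rose than fell in S2A (16 and 11 without the 3 arrays). On the right end of chromosome II more members rose than fell in every mutant. There 2 of 15 members fell in each of S7A, S2A and S2A/S7A and 4 in S7E, none by 1.5-fold or more. Of the same 15, 4 rose in S7A, 6 in S2A, 8 in S2A/S7A and 9 in S7E (6 without the 3 arrays). Some of these counts lay near the shares of all genes, such as the 10 of 35 in S2A on the left end of chromosome I. The differences between ends were not tested.

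**Figure D2:**
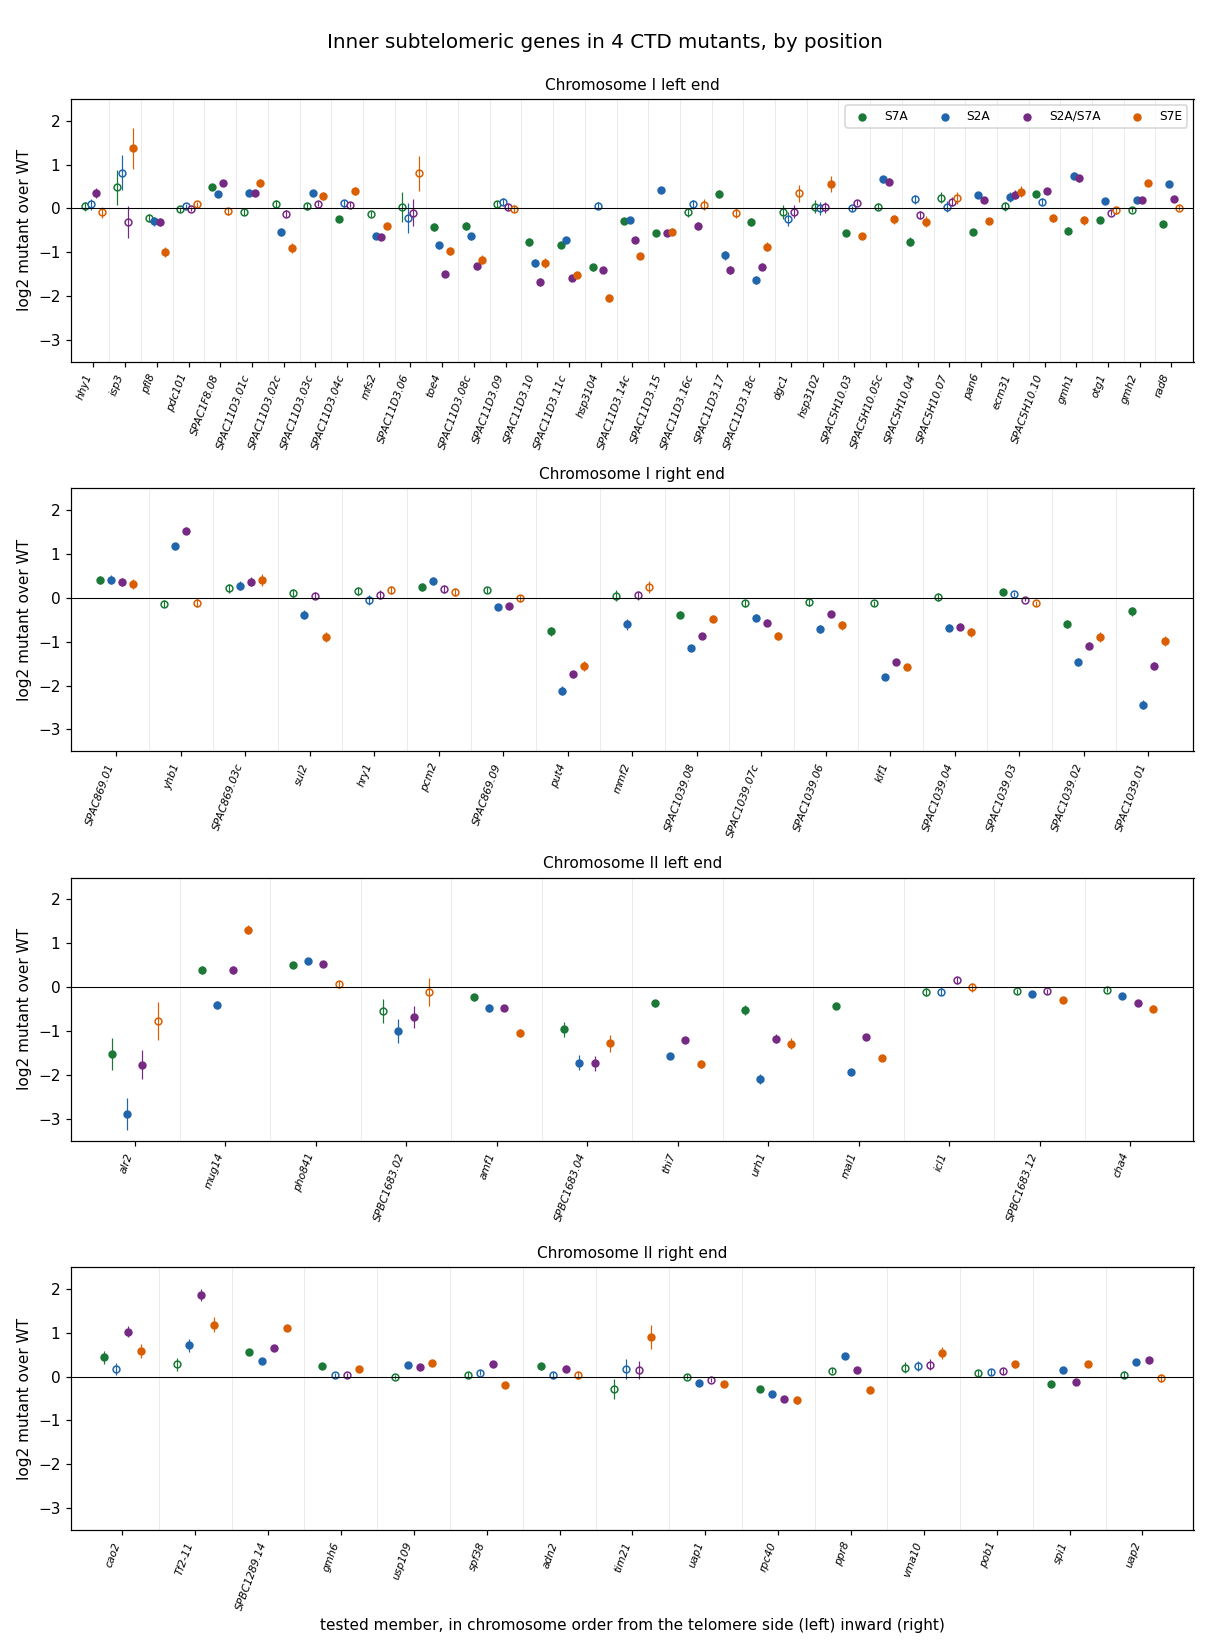
Fitted log2 mutant over WT (vertical axis) for each of the 79 tested members in chromosome order, with the telomere side on the left of each panel; points are the 4 mutants, bars the SE, and filled points passed the adjusted p of 0.05. Lower members lie in stretches, such as amf1 to mal1 on chromosome II left, and the right end of chromosome II has no member below -0.55.

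Members that fell lay side by side in a larger share of pairs than genes at large. Members also fell more often than all genes, which by itself raises the share of pairs in which both fell. The part of the gap that this makes up was not worked out. Of 75 pairs of neighbouring tested members, both fell in 11 pairs in S7A (14.7%), 19 in S2A (25.3%), 19 in S2A/S7A (25.3%) and 20 in S7E (26.7%). Over 5042 pairs of neighbouring tested genes of the genome, members included, both fell in 3.35%, 8.67%, 9.40% and 9.10%. Both members rose in 2, 9, 12 and 7 pairs (2.67%, 12.0%, 16% and 9.33%, against 4.24%, 11.4%, 14.3% and 12.8% of all pairs). The neighbours were called in opposite directions in 4, 8, 4 and 11 (5.33%, 10.7%, 5.33% and 14.7%, against 4.60%, 14.9%, 16.3% and 15.7%). Neighbours here are next to each other among the members, or among all tested genes, with genes between them skipped. The longest stretches were 8 members, from SPAC869.09 to SPAC1039.04 on chromosome I right in S2A and from SPAC11D3.10 to SPAC11D3.18c on chromosome I left in S2A/S7A. In the former, SPAC869.09 (-0.21 in S2A) no longer passed without S2A replicate 1, 3 or 4 (adjusted p = 0.098, 0.085 and 0.060), and mmf2 no longer passed with all its probes averaged (0.089). 5 members in a row on chromosome II left, amf1, SPBC1683.04, thi7, urh1 and mal1, fell in all 4 mutants. The most extended stretch of members that rose was the 5 from cao2 to usp109 on chromosome II right in S7E. Without S7E replicate 1, cao2 and gmh6 of that stretch no longer passed (adjusted p = 0.13 and 0.25). No test was made of the clustering.

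Nutrient transporters were among the members that fell most. The 13 tested members assigned to transport had a median of -0.63 in S2A, -0.65 in S2A/S7A, -0.87 in S7E and -0.13 in S7A. Of these, 10 fell in S2A, 8 in S2A/S7A, 10 in S7E and 6 in S7A, while 2, 2, 1 and 1 rose. Of all genes tested, 27.1%, 27.8%, 27.6% and 16.6% fell in that order, and 31.2%, 35.1%, 33.5% and 18.0% rose. The roles in this account were assigned from general knowledge of the genes, since the files hold no descriptions.

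The proline permease gene put4 read -1.97, -2.30, -2.37 and -1.82 on the 4 S2A arrays, and -1.84, -1.91, -1.47, -1.85 and -1.79 on the 5 S2A/S7A arrays. In S7E it read -1.65, -1.70 and -1.44, and in S7A -0.86, -0.82, -1.12 and -0.25. Every array lay below 0, and the S7A arrays lay above all others, with replicate 4 the nearest to 0. The fitted values were -2.12 ± 0.100 in S2A (adjusted p = 3.2e-10), -1.75 ± 0.090 in S2A/S7A (5.6e-10), -1.56 ± 0.117 in S7E (4.5e-08) and -0.76 ± 0.100 in S7A (4.1e-05). put4 was lower in S2A than in S7A by 1.35 ± 0.141 on the log2 scale (adjusted p = 2.9e-06).

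SPAC1039.01, a predicted amino acid permease gene at the inner edge of the chromosome I right members, read -2.51, -2.54, -2.54 and -2.16 in S2A. It read -1.58, -1.70, -1.44, -1.63 and -1.53 in S2A/S7A and -0.93, -1.11 and -0.97 in S7E. The 3 groups did not overlap, with S2A lowest, S2A/S7A next and S7E nearest to 0. In S7A the readings were -0.58, -0.39, -0.54 and 0.28, on both sides of 0. The fit gave -2.44 ± 0.101 in S2A (5.41-fold lower, adjusted p = 1.1e-10), -1.56 ± 0.091 in S2A/S7A (2.1e-09), -0.98 ± 0.118 in S7E (6.0e-06) and -0.31 ± 0.101 in S7A (0.028). The S7A call did not survive leaving out any one of replicates 1, 2 and 3 (adjusted p = 0.22, 0.088 and 0.12), and without replicate 4 the value was -0.50. The doubly altered strain was higher than S2A by 0.88 ± 0.136 (adjusted p = 3.9e-04).

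The thiamine transporter gene thi7 read -1.45, -1.46, -1.55 and -1.81 in S2A, -1.22, -1.33, -1.16, -1.14 and -1.18 in S2A/S7A, and -1.88, -1.78 and -1.56 in S7E. In S7A it read -0.50, -0.37, -0.52 and -0.09. S7A was the highest group and S2A/S7A the next, and neither overlapped with the others. The fitted values were -1.57 ± 0.075 (S2A), -1.21 ± 0.068 (S2A/S7A), -1.75 ± 0.088 (S7E) and -0.37 ± 0.075 (S7A), with adjusted p of 3.4e-10, 1.3e-09, 8.8e-10 and 0.0016.

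The remaining transporters did not all follow. SPAC11D3.08c, a predicted amino acid permease gene, fell to -0.63 ± 0.086 in S2A, -1.32 ± 0.078 in S2A/S7A, -1.17 ± 0.101 in S7E and -0.39 ± 0.086 in S7A. SPAC11D3.18c, a predicted nicotinic acid transporter gene, fell to -1.62 ± 0.090 in S2A, -1.33 ± 0.081 in S2A/S7A, -0.87 ± 0.105 in S7E and -0.32 ± 0.090 in S7A, the last not past the threshold without S7A replicate 1 or 3 (adjusted p = 0.072 and 0.091). The transporter gene amf1 fell most in S7E, to -1.04 ± 0.094, and to -0.47 ± 0.080 in S2A, -0.48 ± 0.072 in S2A/S7A and -0.23 ± 0.080 in S7A. The S7A call of amf1 was lost without S7A replicate 2, 3 or 4 (adjusted p = 0.094, 0.065 and 0.24) or S2A replicate 3 (0.050). pho841, a phosphate transporter gene, rose instead in S7A (0.52 ± 0.066), S2A (0.59 ± 0.066) and S2A/S7A (0.53 ± 0.059) and was 0.06 ± 0.077 in S7E (adjusted p = 0.49).

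**Figure D3:**
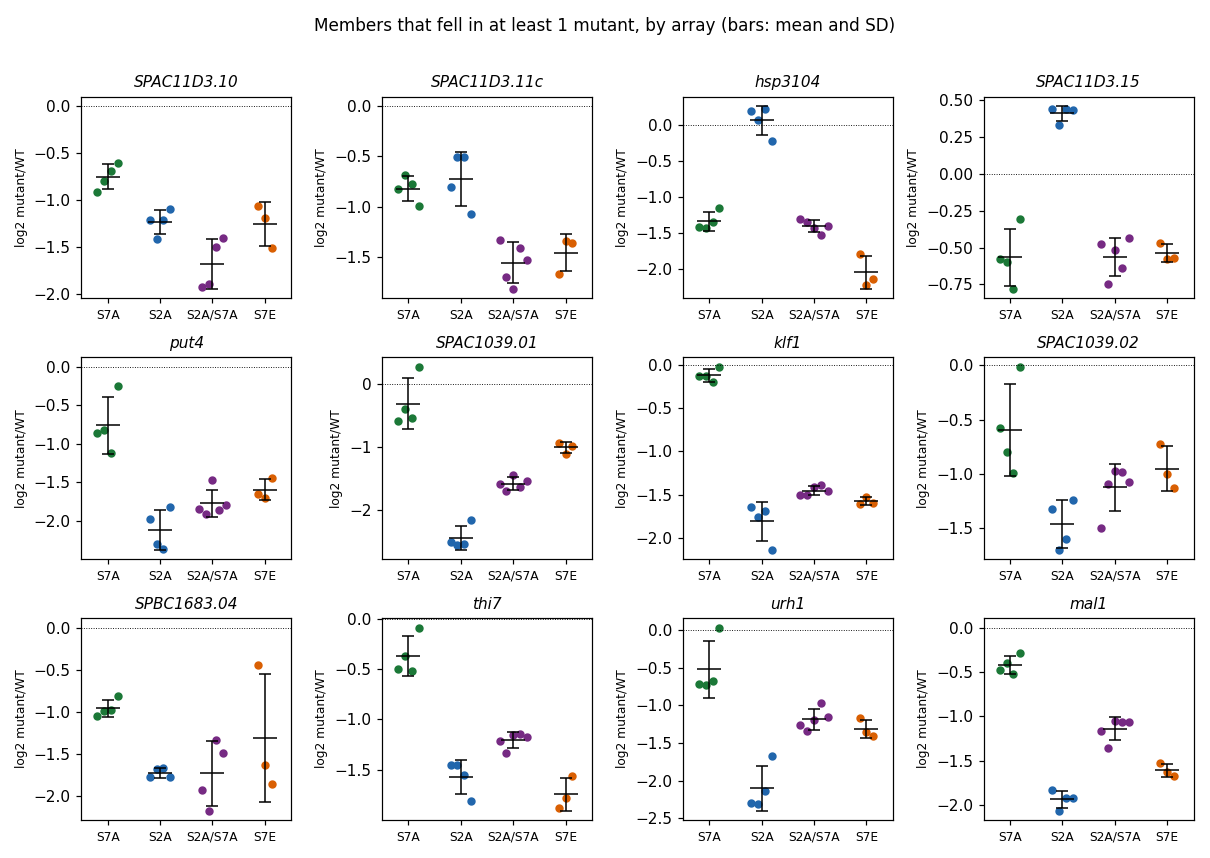
Deposited log2 mutant over WT on each array (points, vertical axis, scaled separately per gene) for 12 members that fell in at least 1 mutant, by mutant; black bars are the mean and SD over 4 S7A, 4 S2A, 5 S2A/S7A and 3 S7E arrays. In S2A hsp3104 lies on both sides of 0 and SPAC11D3.15 above it, both lie below 0 in the other mutants, and klf1 lies near 0 in S7A and below -1.3 in the others.

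Of 14 tested genes for the use of nitrogen compounds, 7 fell by 1.5-fold or more in S2A, 6 in S2A/S7A, 5 in S7E and 2 in S7A, beside 4.93%, 4.74%, 6.73% and 1.62% of all genes. At any size, 9 fell in S2A, 9 in S2A/S7A, 7 in S7E and 6 in S7A (9 without the 3 arrays), and 2 rose in each mutant. The shares of all genes that fell at any size were 27.1%, 27.8%, 27.6% and 16.6% in that order. Those that rose were 31.2%, 35.1%, 33.5% and 18.0%. Medians of the 14 genes were -0.53, -0.56, -0.50 and -0.21.

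alr2, an alanine racemase gene on chromosome II left, had the lowest fitted value of any member in S2A, -2.89 ± 0.371 (7.42-fold lower, adjusted p = 9.8e-06). Its S2A arrays read -3.30, -3.58, -3.47 and -1.21, and its S7A arrays -1.88, -2.02, -1.95 and -0.22. In both groups replicate 4 lay far above the other 3. The S2A/S7A arrays also split, into -2.76 and -2.89 on replicates 1 and 2 and -0.79, -1.40 and -1.38 on the rest, and the S7E arrays read -0.19, -1.28 and -1.21. The fitted values were -1.52 ± 0.371 in S7A (adjusted p = 0.0054), -1.77 ± 0.334 in S2A/S7A (3.0e-04) and -0.77 ± 0.433 in S7E (0.14). Without the 3 arrays alr2 was -3.44 in S2A (adjusted p = 2.3e-07) and -1.20 in S7E (0.017), so that the S7E value then passed. SPAC1039.06, another predicted alanine racemase gene, fell to -0.71 ± 0.085 in S2A, -0.37 ± 0.077 in S2A/S7A and -0.63 ± 0.100 in S7E and was -0.10 ± 0.085 in S7A (-0.12 without the 3 arrays, adjusted p = 0.048). Its S2A arrays read -0.55, -0.51, -0.52 and -1.26, replicate 4 being the lowest here.

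urh1, which encodes a uridine ribohydrolase of pyrimidine salvage, read -2.29, -2.31, -2.13 and -1.67 in S2A and -1.26, -1.35, -1.20, -0.98 and -1.15 in S2A/S7A. It read -1.17, -1.35 and -1.40 in S7E and -0.72, -0.73, -0.68 and 0.03 in S7A. S2A was lowest and S7A highest, without overlap with the middle groups, and S7A replicate 4 stood apart. The fit gave -2.10 ± 0.114 in S2A (adjusted p = 1.3e-09), -1.17 ± 0.102 in S2A/S7A (1.4e-07), -1.29 ± 0.132 in S7E (1.2e-06) and -0.53 ± 0.114 in S7A (0.0024).

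SPBC1683.02, a predicted adenine deaminase gene in the same stretch, fell in S2A (-1.01 ± 0.274, adjusted p = 0.0055) and S2A/S7A (-0.68 ± 0.247, 0.027). The S2A/S7A call was lost without S2A/S7A replicate 1, 2 or 3 (adjusted p = 0.051, 0.12 and 0.078). In S7E replicate 1 read 1.60 and the other 2 arrays lay below 0, the lower at -1.07, and the fitted value of -0.10 ± 0.320 had an adjusted p of 0.80. Without the 3 arrays it was -1.09 in S7E (adjusted p = 4.5e-08) and -0.50 in S7A (1.1e-05), where the fit to all arrays gave -0.54 ± 0.274 (0.14).

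In the SPAC11D3 stretch of chromosome I left, SPAC11D3.15 and hsp3104, the latter described with the redox genes, fell in the 3 mutants with an altered serine 7 and not in S2A, while most of their neighbours fell in S2A too. SPAC11D3.10, assigned to nitrogen metabolism, fell in all 4 mutants, to -0.76 ± 0.091 in S7A, -1.24 ± 0.091 in S2A, -1.68 ± 0.091 in S2A/S7A and -1.25 ± 0.106 in S7E. SPAC11D3.15, a predicted 5-oxoprolinase gene, read -0.58, -0.60, -0.78 and -0.31 in S7A, 0.44, 0.34, 0.44 and 0.43 in S2A, -0.48, -0.75, -0.52, -0.64 and -0.44 in S2A/S7A, and -0.47, -0.58 and -0.57 in S7E. All S2A arrays were above 0 and all others below it. The fit gave 0.41 ± 0.064 in S2A (adjusted p = 6.3e-05) and -0.57 ± 0.064, -0.56 ± 0.058 and -0.53 ± 0.075 in S7A, S2A/S7A and S7E (9.9e-06, 9.0e-07 and 2.8e-05). SPAC11D3.14c, a neighbour assigned to the same role, fell in all 4, most in S7E at -1.09 ± 0.068 and least in S2A at -0.27 ± 0.058 (-0.18 without S2A replicate 4).

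Between put4 and klf1 lay 3 more genes of this group. SPAC1039.08, a predicted acetyltransferase gene, fell to -1.14 ± 0.072 in S2A, -0.86 ± 0.072 in S2A/S7A, -0.48 ± 0.084 in S7E and -0.38 ± 0.072 in S7A. SPAC1039.07c, a predicted aminotransferase gene, fell to -0.45 ± 0.079, -0.56 ± 0.071 and -0.87 ± 0.093 in S2A, S2A/S7A and S7E and was -0.12 ± 0.079 in S7A. Without S7A replicate 4 its S7A value was -0.25 and passed (adjusted p = 0.018). The third, mmf2, fell in S2A (-0.61 ± 0.117, adjusted p = 4.1e-04) and did not pass elsewhere. It was 0.05 ± 0.117 in S7A, 0.06 ± 0.106 in S2A/S7A and 0.25 ± 0.137 in S7E. The S7E arrays of mmf2 read 0.92, -0.07 and -0.20, so that only replicate 1 lay above 0. Without S7E replicate 3 the S7E value passed (0.43, adjusted p = 0.027), and without the 3 arrays that stood apart it was -0.16 (0.083). The 1 junction probe of mmf2 averaged 0.58 in S2A, opposite in sign to the exon mean of -0.61, and its 1 intron probe -0.33. With all probes of mmf2 averaged the S2A value was -0.09 (adjusted p = 0.089).

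Members of the nitrogen group that rose were SPAC869.01, a predicted amidase gene, and cao2, a gene of the copper amine oxidase family. SPAC869.01 read 0.41, 0.40, 0.61 and 0.21 in S7A, 0.27, 0.18, 0.40 and 0.80 in S2A, 0.20, 0.20, 0.60, 0.25 and 0.53 in S2A/S7A, and 0.49, 0.28 and 0.16 in S7E. The 16 arrays were all above 0 and the groups overlapped. It rose in all 4 mutants, to 0.41 ± 0.097, 0.41 ± 0.097, 0.36 ± 0.087 and 0.32 ± 0.113, and the S7E call was lost without S7E replicate 1 or 2 (adjusted p = 0.18 and 0.068), without the 3 arrays (0.088) and with arrays scaled to equal spread (0.087). cao2 read 1.30, 1.29, 1.00, 0.78 and 0.68 in S2A/S7A, all above its 4 S2A readings of 0.41, 0.19, 0.38 and -0.32. It rose to 1.02 ± 0.124 in S2A/S7A (adjusted p = 4.7e-06), 0.58 ± 0.161 in S7E (0.0060) and 0.43 ± 0.138 in S7A (0.024), the last lost without S7A replicate 1, 2 or 3 (0.12, 0.094 and 0.10) and the S7E call without S7E replicate 1 (0.13). In S2A it was 0.16 (adjusted p = 0.32), and 0.35 without S2A replicate 4 (0.035).

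Of 5 members assigned to carbon metabolism, 3 fell in S7A, 2 in S2A, 2 in S2A/S7A and 3 in S7E, and none rose. The shares of all genes that fell were 16.6%, 27.1%, 27.8% and 27.6% in that order. mal1, an alpha-glucosidase (maltase) gene, read -1.83, -2.06, -1.93 and -1.93 in S2A and -1.17, -1.36, -1.05, -1.07 and -1.06 in S2A/S7A. It read -1.53, -1.63 and -1.67 in S7E and -0.48, -0.40, -0.52 and -0.29 in S7A. The 4 groups did not overlap, with S2A lowest, then S7E, S2A/S7A and S7A. The fitted values were -1.94 ± 0.057 in S2A (3.83-fold lower, adjusted p = 5.2e-12), -1.60 ± 0.067 in S7E (2.1e-10), -1.14 ± 0.051 in S2A/S7A (2.0e-10) and -0.43 ± 0.057 in S7A (4.9e-05).

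SPBC1683.04, a predicted glycosyl hydrolase gene beside thi7, fell to -1.72 ± 0.168 in S2A, -1.73 ± 0.168 in S2A/S7A, -1.28 ± 0.196 in S7E and -0.96 ± 0.168 in S7A. Its S7E arrays read -0.44, -1.63 and -1.86, with replicate 1 nearest to 0, and without the 3 arrays the S7E value was -1.78. icl1, assigned to the same role but lying inward of the stretch, did not pass in any mutant, with values from -0.11 in S7A to 0.16 in S2A/S7A. SPAC5H10.03 fell in S7A (-0.56 ± 0.062) and S7E (-0.63 ± 0.073) and was 0.00 ± 0.062 in S2A and 0.13 ± 0.056 in S2A/S7A.

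The redox genes went in both directions. hsp3104, a member of the Hsp31 (DJ-1) family, read -1.42, -1.43, -1.35 and -1.16 in S7A and -1.30, -1.35, -1.43, -1.53 and -1.41 in S2A/S7A. It read -1.79, -2.22 and -2.14 in S7E, and 0.19, 0.06, 0.22 and -0.22 in S2A. The 3 strains with an altered serine 7 lay wholly below S2A, and S7E wholly below the rest. It fell to -2.04 ± 0.091 in S7E (4.10-fold lower, adjusted p = 3.0e-10), -1.40 ± 0.070 in S2A/S7A (4.2e-10) and -1.34 ± 0.078 in S7A (1.3e-08), and was 0.06 ± 0.078 in S2A (0.50). Without S2A replicate 4 the S2A value was 0.18 and passed (adjusted p = 0.040). S2A/S7A was lower than S2A by 1.46 ± 0.104 (adjusted p = 2.9e-07), the largest fall among the members in that comparison.

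yhb1, the flavohemoglobin gene for nitric oxide detoxification, showed the reverse division. It read 1.13, 1.05, 1.19 and 1.32 in S2A and 1.63, 1.67, 1.44, 1.43 and 1.47 in S2A/S7A. The S7A arrays read -0.02, -0.10, 0.07 and -0.48 and the S7E arrays 0.10, -0.25 and -0.19. Both strains with an altered serine 2 lay wholly above both strains without. It rose to 1.18 ± 0.082 in S2A (2.26-fold, adjusted p = 1.8e-08) and 1.53 ± 0.074 in S2A/S7A (2.89-fold, 3.3e-10), and was -0.13 ± 0.082 in S7A (0.24) and -0.11 ± 0.096 in S7E (0.34), or -0.21 in S7E without the 3 arrays (0.027).

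SPAC5H10.05c, also assigned to redox, rose in S2A (0.67 ± 0.083) and S2A/S7A (0.61 ± 0.074), fell in S7E (-0.25 ± 0.096) and was 0.04 ± 0.083 in S7A. Its S7E arrays read 0.13, -0.38 and -0.50, and the S7E value was -0.51 without replicate 1, -0.18 without replicate 2 (adjusted p = 0.20) and -0.12 without replicate 3 (0.34). SPAC5H10.04, next to it, fell in S7A (-0.76 ± 0.105) and in S7E (-0.30 ± 0.122). Its 3 S7E arrays read 0.28, -0.59 and -0.64, on both sides of 0. The S7E call of SPAC5H10.04 was lost on leaving out any 1 of 13 arrays (adjusted p = 0.050 to 0.35), and its value was -0.65 without S7E replicate 1. hsp3102 passed in S7E at 0.56 ± 0.172 on arrays that read 1.44, 0.22 and -0.08, so that replicate 1 alone lay far above 0.

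Of 5 members assigned as transcription factors, 4 fell in S2A, 4 in S2A/S7A, 3 in S7E and 1 in S7A. In the same order 0, 1, 0 and 2 rose, so that more rose than fell in S7A. The shares of all genes that fell were 27.1%, 27.8%, 27.6% and 16.6% in that order, and those that rose 31.2%, 35.1%, 33.5% and 18.0%. klf1, a zinc finger factor needed for long survival in quiescence, read -1.64, -1.76, -1.69 and -2.13 in S2A and -1.50, -1.50, -1.40, -1.39 and -1.46 in S2A/S7A. It read -1.61, -1.52 and -1.60 in S7E, and -0.14, -0.13, -0.21 and -0.02 in S7A. The S7A arrays lay close to 0 and apart from the others. The fit gave -1.81 ± 0.064 (S2A), -1.45 ± 0.057 (S2A/S7A), -1.58 ± 0.074 (S7E) and -0.12 ± 0.064 (S7A), with adjusted p of 1.7e-11, 5.1e-11, 4.7e-10 and 0.15. Without the 3 arrays klf1 passed in S7A at -0.15 (adjusted p = 0.0091), and without S2A replicate 4 alone at -0.12 (0.018). S7E was lower than S7A by 1.46 ± 0.098 (adjusted p = 1.0e-07), so that alanine and glutamate at the same residue differed by 2.74-fold at this gene.

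toe4 fell in all 4 mutants, to -0.84 ± 0.083 in S2A, -1.49 ± 0.075 in S2A/S7A, -0.96 ± 0.097 in S7E and -0.42 ± 0.083 in S7A. SPAC11D3.17 fell in S2A (-1.07 ± 0.100) and S2A/S7A (-1.41 ± 0.090), rose in S7A (0.33 ± 0.100) and was -0.10 ± 0.117 in S7E. Its S7A arrays read 0.22, 0.37, 0.12 and 0.60, and that call was lost without replicate 2 or 4 (adjusted p = 0.068 and 0.14).

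Among 6 surface and glycosylation members, gmh1, a galactosyltransferase family gene, read 0.76, 0.91, 0.82 and 0.50 in S2A and 1.00, 0.79, 0.42, 0.45 and 0.84 in S2A/S7A. It read -0.62, -0.48, -0.57 and -0.35 in S7A and -0.31, -0.17 and -0.28 in S7E. Both strains with an altered serine 2 were above 0 and both without were below it. It rose to 0.75 ± 0.084 (S2A, adjusted p = 2.6e-06) and 0.69 ± 0.075 (S2A/S7A, 1.6e-06) and fell to -0.51 ± 0.084 in S7A (3.2e-04) and -0.27 ± 0.098 in S7E (0.027), the last lost on leaving out any 1 of the S7E arrays (adjusted p = 0.060 to 0.11).

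**Figure D4:**
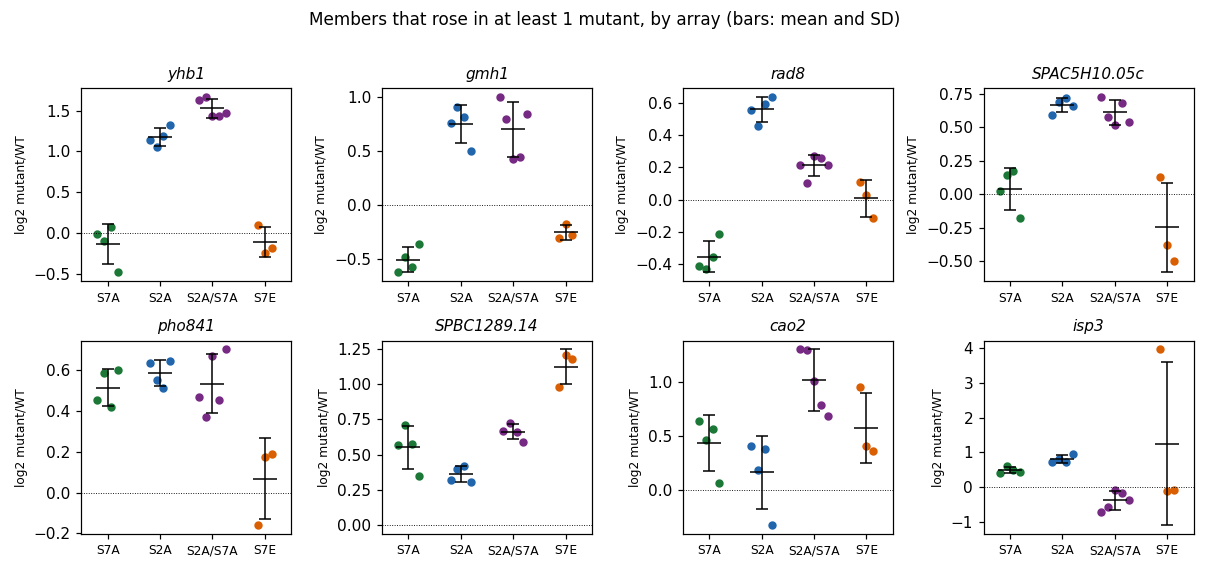
Deposited log2 mutant over WT on each array (points, vertical axis, scaled separately per gene) for 8 members that rose in at least 1 mutant, by mutant; black bars are the mean and SD over 4 S7A, 4 S2A, 5 S2A/S7A and 3 S7E arrays. yhb1 and gmh1 are higher in S2A and S2A/S7A than in S7A and S7E, and isp3 in S7E has 1 array at 3.96 beside others at -0.10 and -0.09.

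isp3, a spore wall protein gene, was called higher in S7E at 1.38 ± 0.465 (adjusted p = 0.019), on arrays that read 3.96, -0.10 and -0.09. Without S7E replicate 1 the value was -0.09 (0.60). In S7A it read 0.42, 0.61, 0.48 and 0.43 and in S2A 0.73, 0.82, 0.73 and 0.96, every array above 0. The SE common to the fit was wide, and neither passed (0.48 ± 0.399, adjusted p = 0.38, and 0.81 ± 0.399, 0.095). Without the 3 arrays both passed (0.50, adjusted p = 7.2e-04, and 0.76, 8.2e-06). pfl8, a flocculin family gene, fell most in S7E (-0.98 ± 0.114) and also in S2A (-0.29 ± 0.097) and S2A/S7A (-0.31 ± 0.088).

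Of the 14 housekeeping members, 8 rose and 2 fell in S2A (against 31.2% and 27.1% of all genes). In S2A/S7A 7 rose and 2 fell (against 35.1% and 27.8%). In S7E 6 rose and 5 fell (against 33.5% and 27.6%), but without the 3 arrays 3 rose and 4 fell. In S7A 1 rose and 4 fell (against 18.0% and 16.6%). None changed by 1.5-fold or more in S7A, S2A or S2A/S7A. rad8, a ubiquitin ligase gene of DNA damage tolerance, read 0.55, 0.45, 0.59 and 0.63 in S2A and -0.41, -0.43, -0.36 and -0.21 in S7A. The 2 groups lay on opposite sides of 0. It rose in S2A (0.56 ± 0.049, adjusted p = 2.0e-07) and S2A/S7A (0.22 ± 0.044), fell in S7A (-0.35 ± 0.049, 6.7e-05) and was 0.02 ± 0.057 in S7E. pan6, a pantothenate synthesis gene, likewise rose in S2A (0.30 ± 0.053) and S2A/S7A (0.19 ± 0.048) and fell in S7A (-0.53 ± 0.053), and it also fell in S7E (-0.28 ± 0.062).

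rpc40, which encodes a subunit shared by RNA polymerases I and III, was the one housekeeping member that fell in all 4 mutants, to -0.29 ± 0.066 in S7A, -0.39 ± 0.066 in S2A, -0.51 ± 0.059 in S2A/S7A and -0.55 ± 0.077 in S7E. tim21, of the mitochondrial import machinery, passed in S7E at 0.90 ± 0.268 on arrays that read 2.34, 0.04 and 0.13, and was 0.08 without replicate 1 (adjusted p = 0.55). spi1, the Ran GTPase gene, stayed within 0.28 of 0 in every mutant, and its calls in S7A (-0.16), S2A (0.15) and S2A/S7A (-0.13) were each lost on leaving out any of 3 single arrays of that mutant (adjusted p = 0.054 to 0.12). On 4 arrays it held a value that over 20 probes shared, and pdc101, a pyruvate decarboxylase gene on chromosome I left, held the same value there. With introns and junctions averaged in, spi1 in S7E was -0.0020 instead of 0.28.

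The retrotransposon copy Tf2-11 read 2.07, 2.11, 1.57, 1.83 and 1.79 in S2A/S7A, 1.29, 1.14 and 1.17 in S7E, 0.36, 0.70, 0.78 and 1.02 in S2A, and 0.62, 0.34, 0.64 and -0.49 in S7A. S2A/S7A was the highest group without overlap, and S7A replicate 4 was the only array below 0. It rose to 1.86 ± 0.133 in S2A/S7A (3.64-fold, adjusted p = 1.5e-08), 1.18 ± 0.172 in S7E (3.7e-05) and 0.72 ± 0.148 in S2A (7.2e-04), and was 0.28 ± 0.148 in S7A (0.16), or 0.52 without the 3 arrays (7.8e-04). Copies of Tf2 are near-identical, so the signal may come from copies elsewhere in the genome and is uncertain for this locus.

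SPBC1289.14, one of 16 tested members with no role given, lies beside Tf2-11. It read 0.57, 0.71, 0.58 and 0.35 in S7A, 0.32, 0.40, 0.42 and 0.30 in S2A, 0.67, 0.72, 0.66 and 0.59 on 4 arrays of S2A/S7A, and 0.98, 1.21 and 1.18 in S7E. All were above 0, and S7E was highest without overlap. It rose in all 4, to 0.55 ± 0.051, 0.36 ± 0.051, 0.66 ± 0.051 and 1.11 ± 0.060. mug14 divided the mutants: it rose in S7E (1.31 ± 0.107, adjusted p = 2.1e-07), S2A/S7A (0.39 ± 0.092) and S7A (0.38 ± 0.092) and fell in S2A (-0.41 ± 0.092, and -0.25 without S2A replicate 1). SPAC11D3.11c and SPAC1039.02 fell in all 4, SPAC11D3.11c to -1.59 ± 0.049 in S2A/S7A and -1.51 ± 0.063 in S7E, and SPAC1039.02 to -1.46 ± 0.094 in S2A.

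Several members changed by small amounts. SPAC1F8.08, with no role given, rose to 0.50 ± 0.070 in S7A, 0.33 ± 0.070 in S2A and 0.58 ± 0.063 in S2A/S7A and was -0.06 ± 0.082 in S7E. SPAC11D3.01c rose in S2A (0.36 ± 0.074), S2A/S7A (0.36 ± 0.066) and S7E (0.58 ± 0.086), the S7E arrays reading 0.95, 0.49 and 0.25 (0.38 without replicate 1). gmh2, of the same family as gmh1, rose in S2A (0.19 ± 0.052), S2A/S7A (0.20 ± 0.047) and S7E (0.57 ± 0.061), the S2A call being lost without S2A replicate 2 (adjusted p = 0.052), while otg1, another galactosyltransferase gene, rose in S2A (0.18 ± 0.071) and fell in S7A (-0.26 ± 0.071). The S2A call of otg1 was lost on leaving out any 1 S2A array (adjusted p = 0.054 to 0.21) and without S7A replicate 1 or 3 or S7E replicate 2 or 3 (0.051 to 0.055), and the S7A call without S7A replicate 2 or 3 (adjusted p = 0.081 and 0.050). ecm31, of pantothenate synthesis like pan6, rose in S2A (0.27 ± 0.110), S2A/S7A (0.31 ± 0.099) and S7E (0.38 ± 0.128), where 1 array read 1.04 and the others 0.04 and -0.06. Without that array, S7E replicate 1, it was 0.04 in S7E (adjusted p = 0.74). The S2A/S7A call of ecm31 was lost without S2A/S7A replicate 5 (0.051), and its S2A call without S2A replicate 2, 3 or 4 (0.12, 0.100 and 0.18) and without several single arrays of S7A or S2A/S7A. SPAC5H10.10 rose in S7A (0.33 ± 0.074) and S2A/S7A (0.41 ± 0.066), fell in S7E (-0.22 ± 0.086) and was 0.16 ± 0.074 in S2A. Its S7E call was lost without S7E replicate 2 or 3 (adjusted p = 0.27 and 0.18), and in S2A it passed without S2A replicate 4 (0.21, adjusted p = 0.038) or S7E replicate 1 (adjusted p = 0.034). SPAC11D3.16c fell in S2A/S7A (-0.40 ± 0.091) and was not called in the other mutants, but passed in S2A without S2A replicate 4 (0.24, adjusted p = 0.041).

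The remaining 23 tested members are given by their range. For comparison, 18.0% of all genes rose and 16.6% fell in S7A, and 31.2% and 27.1% in S2A. In S2A/S7A 35.1% of all genes rose and 27.8% fell, and in S7E 33.5% and 27.6%. In S7A they lay between -0.24 (SPAC11D3.04c) and 0.25 (pcm2), with 3 higher and 1 lower, and in S2A between -0.63 (mfs2) and 0.47 (ppr8), with 5 higher and 6 lower. In S2A/S7A they lay between -0.65 (mfs2) and 0.37 (uap2), with 6 higher and 2 lower. The widest range was in S7E, from -0.90 (sul2) to 0.80 (SPAC11D3.06, whose arrays read 2.96, -0.37 and -0.42 and which did not pass), with 5 higher and 8 lower.

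By the call in each mutant, 16 members fell in all 4 mutants, 2 (SPAC869.01 and SPBC1289.14) rose in all 4, and 5 were called in all 4 with mixed directions. In all, 13 members rose in at least 1 mutant and fell in another, and 7 were called in none. These patterns were not counted over all genes, so they are not set against genes at large. In either direction, 49.4% of members were called in S7A (34.6% of all genes) and 69.6% in S2A (58.4%). In S2A/S7A the share was 68.4% (62.8%) and in S7E 70.9% (61.1%).

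Tests between mutants addressed whether the altered residues differed in effect. S2A against S7A gave 25 members lower (31.6%, against 20.1% of all genes) and 18 higher (22.8%, against 21.9%). The lowest were SPAC1039.01 (-2.12 ± 0.143), klf1 (-1.68 ± 0.090) and urh1 (-1.57 ± 0.161), and the highest hsp3104 (1.40 ± 0.110), yhb1 (1.31 ± 0.116) and gmh1 (1.25 ± 0.119). Members thus lay on both sides in that comparison. S7E against S7A gave 28 lower (35.4%, against 20.2%) and 12 higher (15.2%, against 22.7%), with klf1 (-1.46 ± 0.098), thi7 (-1.38 ± 0.115) and mal1 (-1.18 ± 0.088) lowest and tim21 (1.19 ± 0.353), mug14 (0.93 ± 0.141) and Tf2-11 (0.90 ± 0.227) highest. In that comparison tim21 was 0.37 without S7E replicate 1 (adjusted p = 0.030) and 0.32 without the 3 arrays, and it did not pass in a fit of those mutants alone (0.057). Tf2-11 was 0.59 without the 3 arrays (0.0069) and did not pass with arrays scaled to equal spread (0.50, adjusted p = 0.15).

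The doubly altered strain was compared with each singly altered one. S2A/S7A against S7A gave 23 lower (29.1%, against 18.8%) and 15 higher (19.0%, against 22.7%). SPAC11D3.17 (-1.74 ± 0.134) was lowest and yhb1 (1.66 ± 0.111) highest. S2A/S7A against S2A gave 11 lower (13.9%, against 11.2%) and 15 higher (19.0%, against 12.0%). Among those that passed, the lowest were hsp3104, SPAC11D3.15 (-0.97 ± 0.087) and SPAC11D3.11c (-0.86 ± 0.073), all of the SPAC11D3 stretch, and the highest were Tf2-11 (1.15 ± 0.199), urh1 (0.93 ± 0.153) and SPAC1039.01. isp3 (-1.12 ± 0.536, adjusted p = 0.15) and alr2 (1.12 ± 0.499, 0.12) did not pass.

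The value in S2A/S7A was also set against the sum of the S2A and S7A values. It was above the sum for 18 members (22.8%, against 13.6% of all genes) and below it for 8 (10.1%, against 12.8%). The members furthest above were alr2 (2.64 ± 0.622, adjusted p = 0.0065), urh1 (1.46 ± 0.190) and mal1 (1.22 ± 0.096), each of which fell in both single mutants. For mal1, S2A/S7A was also higher than S2A alone, by 0.80 ± 0.077 (adjusted p = 4.4e-06). Among those that passed, the members furthest below the sum were SPAC11D3.17 (-0.67 ± 0.167), pho841 (-0.57 ± 0.110) and SPAC869.01 (-0.46 ± 0.162, adjusted p = 0.049). The SPAC869.01 call was lost in a fit of these mutants alone (0.052) and on leaving out any 1 of 10 arrays (0.055 to 0.12). isp3 had the lowest value, -1.60 ± 0.668, and did not pass (0.090).

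Only 11 members had intron or junction probes, 27 for introns, 26 for junctions and 2 for junctions that skip an exon. The mean over the 5 junction probes of klf1 was -1.58 in S2A, -1.21 in S2A/S7A, -1.40 in S7E and -0.05 in S7A, near its exon values. Its junction 5-6 lay nearer to 0 than the other junctions, at -0.53 in S2A, -0.38 in S2A/S7A and -0.41 in S7E (SD 0.83). The mean over the 5 intron probes of klf1 was -0.55 in S2A, -0.42 in S2A/S7A, -0.33 in S7E and 0.02 in S7A. That mean was closer to 0 than the exon in the 3 mutants where the exon fell. For SPAC11D3.11c the 2 intron probes averaged -0.21 in S2A and -0.75 in S2A/S7A, where its exon means were -0.72 and -1.56, but -0.83 in S7A, where the exon mean was -0.82. The intron probe of toe4 followed the exon, at -1.35 and -1.48 in S2A/S7A. These are means of probes and were not tested.

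Genes for the factors that act on these regions were counted as well, beside all genes tested, of which 18.0% rose and 16.6% fell in S7A, 31.2% and 27.1% in S2A, 35.1% and 27.8% in S2A/S7A, and 33.5% and 27.6% in S7E. Several of the counts below lie near those shares, and none was tested. Of 24 genes for heterochromatin and subtelomere chromatin factors, 2 rose and 1 fell in S7A, 8 and 2 in S2A, 12 and 4 in S2A/S7A, and 7 and 4 in S7E, with medians of 0.02, 0.06, 0.12 and 0.12. The smallest p belonged to sir2, a histone deacetylase gene, which fell in S7E (-0.72 ± 0.045), S2A/S7A (-0.49 ± 0.035) and S2A (-0.44 ± 0.039), and to clr1, of the SHREC complex, which rose in S7E (0.47 ± 0.046). Of 7 genes for telomere-binding shelterin proteins, 1 rose and 0 fell in S7A, 3 and 1 in S2A, 0 and 1 in S2A/S7A, and 1 and 2 in S7E (medians 0.04, 0.10, -0.03 and -0.12), and rap1 (-0.30 ± 0.062 in S2A/S7A) and taz1 (0.30 ± 0.064 in S2A) had the smallest p. Of 15 nitrogen and TORC1 regulators, 3 rose and 3 fell in S7A, 3 and 4 in S2A, 7 and 4 in S2A/S7A, and 5 and 5 in S7E (medians 0.00, -0.03, 0.10 and -0.09). There ste11, the sexual differentiation regulator, was -1.12 ± 0.078 in S2A and 0.69 ± 0.078 in S7A, and php4, the iron-economy factor, was -0.64 ± 0.061 in S7A. Whether these changes bear on the members was not tested.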

How the data were processed

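Per the file headers and the labels, each deposited value is the ratio of 1 probe on 1 of 16 Agilent arrays. The deposited values were read as log2, a likely base that no source used here states. How the authors normalized them, and the genome build of the probes, are not given in the sources used here. Exon or non-coding RNA probes were averaged per gene. All 16 arrays entered a single limma fit (lmFit and eBayes, limma 3.58.1 under R 4.3.3) with 1 mean per mutant and, for each gene, a dye term. Genes needed a value on at least 2 arrays of every group. All tests were two-sided, and p-values were adjusted over all genes tested in a comparison. The fit was tested on simulated data.

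The members, the gene lists and the alternatives were chosen with earlier results of these data known. Names come from the RefSeq table (ASM294v3), which matched 80 of 80 members, 45 with a symbol, so that SPBC359.02 is alr2 and SPAC1039.06 keeps its ID. Roles were assigned by hand from general knowledge, not from values. Genes described are, per mutant, the 6 highest and 6 lowest members called with 1 sign on every array, the 3 highest and 3 lowest per contrast, members called in all 4 mutants, members of runs of at least 4, the 2 genes with the smallest p in each list, rpb1, and klf1, SPAC1039.06, alr2, put4, isp3, hsp3104 and spi1 always (51 members). A part of the rule on protein identity could not be applied. pfl8, hsp3102, icl1, SPAC5H10.03, pdc101 and the members named for the lowest and highest values of the remaining 23 were chosen after their values were seen. With each mutant set against 0, p-values rest on the spread between arrays within the groups. Each gene has 1 estimate of that spread, shared by all 4 mutants, so an array of 1 mutant can move the call of another. Alternatives covered the dye term, centring, scaling, array weights, missing and repeated values, all probes of a gene, the samples in the fit, a replicate block, and arrays left out.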

Additional observations from a re-analysis of the deposited data

Results flagged for a closer look

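Among 150 groups of 4 or 5 arrays, 1 per named member and mutant, 11 had 1 array far from the rest by Dixon's criterion, which chance alone passes in about 1 of 20 groups. S2A replicate 4 was that array in 6 of the 11. There it read -1.21 for alr2 (the others -3.58 to -3.30), -2.16 for SPAC1039.01, -1.19 for toe4, 0.35 for otg1, -1.26 for SPAC1039.06 and -0.36 for SPAC11D3.16c (the others 0.20 to 0.29). S7A replicate 4 read -0.22 for alr2 (the others -2.02 to -1.88) and 0.030 for urh1. The remaining values were -1.47 for put4 on S2A/S7A replicate 3, -1.50 for SPAC1039.02 on S2A/S7A replicate 1, and 0.335 for SPAC11D3.15 on S2A replicate 2. The S7E group, with 3 arrays, could not be examined in this way.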

How the results depend on the processing

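Of 234 values of named members, 192 were called, and 159 of these stayed called with the same sign under every alternative run for them. Across all alternatives, 6084 comparisons with the main value kept direction and side of the threshold, 72 newly passed, 128 no longer passed and 4 changed sign. Those 4 were spi1 in S7E with all probes averaged (-0.0020), isp3 in S7E without the 3 arrays that stood apart (-0.097) and without S7E replicate 1 (-0.086, and up to 1.93 without replicate 2), and SPBC1683.02 in S7E fitted alone (0.28). Requiring at least 1.5-fold lowered the counts of members higher and lower to 0 and 8 in S7A, 5 and 21 in S2A, 6 and 21 in S2A/S7A, and 5 and 23 in S7E. It lowered the members called to 25 for S2A against S7A (31.6%, against 11.5% of all genes) and 12 for S2A/S7A against S2A (15.2%, against 3.78%). For S2A/S7A against S7A 20 remained (25.3%, against 10.1%), for S7E against S7A 22 (27.8%, against 12.5%) and for non-additivity 14 (17.7%, against 7.54%). Array weights gave 22 members higher in S7A in place of 12, 43 called for S2A/S7A against S2A in place of 26, and 45 for non-additivity in place of 26. Leaving out the 3 arrays gave 44 and 43 for those contrasts, and 10 members higher in S7E in place of 19. Leaving out 1 array at a time gave 7 to 15 members higher in S7A (7 without S7A replicate 2) and 8 to 22 in S7E (8 without S7E replicate 1), 19 to 33 called for S2A/S7A against S2A and 19 to 32 for non-additivity. Counts of members lower ranged from 22 to 29 in S7A, 29 to 35 in S2A, 29 to 33 in S2A/S7A and 31 to 37 in S7E. With array weights or arrays left out, the shares of all genes were not counted. Whether the members or genes at large moved there was therefore not examined. The causes were not tested. Whether replicate numbers pair the arrays could not be settled. Of 21 same-numbered pairs, 9 had r over 0.1. Their median r was 0.087 (highest 0.41), against -0.002 for other pairs (highest 0.45), and the values compared were not corrected for dye. With a replicate block (correlation -0.0015) 12 members were higher and 27 lower in S7A, as without it, and no named call changed. Signal over background cannot be judged from ratios alone, and each member rests on 1 exon probe.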
